A study of Mus musculus with 12 samples.

Results

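*Hlf*, its PAR bZIP relatives *Dbp* and *Tef*, and 7 genes of the circadian clock (*Nfil3*, *Nr1d1*, *Nr1d2*, *Per1*, *Per2*, *Per3* and *Arntl*) were followed across neural stem/progenitor cells (NSPCs) with and without the m6A reader *Ythdf2*. The 10 genes were found by symbol among 24525 gene symbols counted, and all 10 were among the 13112 genes that passed the filter on low counts. *Hlf* was a candidate that the study took from these same libraries, so its difference between genotypes is described here without a test. *Hlf* was thus selected in part on its counts in this contrast, as the paper sought genes with increased mRNA and m6A. The paper also examined its candidates, *Hlf* among them, by RT-qPCR, Ythdf2 RNA immunoprecipitation and mRNA decay, which were not analysed here. The other 9 genes were taken for their kinship with *Hlf* or their place in the clock, with earlier results of these libraries known.

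The libraries are RNA-seq inputs of an m6A-IP experiment, made from the part of the fragmented mRNA that the antibody did not see. There were 3 wild-type and 3 Ythdf2-/- libraries, made from C57BL/6 neurospheres at passage 1 that were grown from E14.5 embryo brains. All were cultured with 20 ng/ml EGF and 10 ng/ml bFGF and received no treatment. The Ythdf2-/- allele comes from floxed mice, with LoxP sites around the start of the gene, crossed to a Cre deleter line. The labels do not say whether a replicate is 1 embryo or a pool, so p-values measure the spread between these samples. They give no hour of harvest and no step that set the clocks of the cells to a common phase. The 6 m6A-IP samples were not analysed here.

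The circadian clock is a loop in which the activators CLOCK and BMAL1 (the product of *Arntl*) switch on the *Per* and *Cry* genes, whose products then switch the activators off. The same activators drive *Nr1d1* and *Nr1d2*, which encode the REV-ERB repressors of *Arntl* and *Nfil3*, and they drive the PAR bZIP factors, which bind D-box sites. NFIL3 represses through the same D-box sites, and in a rhythmic tissue *Arntl* and *Nfil3* peak when the E-box-driven genes are low. Among the PAR bZIP factors, *Hlf* is also known as a gene of blood stem cells and of brain.

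The sites through which these factors act on one another were looked up in the RefSeq promoter windows (GRCm38.p6, from 250 bases before to 50 bases after each start site), because they place each gene in the loop. The motifs searched on both strands were the E-box CACGTG, the D-box TTANGTAA, the core of the REV-ERB and ROR element (TAGGTCA or TGGGTCA) and the cAMP response element TGACGTCA. Of the 10 genes, 9 had a window, and 6 of these held at least 1 match, where 18.8% of the 27025 genes with a window did; *Tef*, *Per1* and *Arntl* had more than 1 window. The matches are shown 5′ to 3′ on the strand of the gene in 30 bases each, with the motif in capitals. No 2 of the motifs overlapped.
*Hlf*, cAMP response element, chr11:90390908-90390937, minus strand: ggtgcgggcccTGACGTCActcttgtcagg
*Tef*, E-box, chr15:81802534-81802563, plus strand: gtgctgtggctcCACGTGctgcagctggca
*Tef*, E-box at a start site 8741 bases inside the gene, chr15:81811264-81811293, plus strand: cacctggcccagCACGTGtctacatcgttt
*Per1*, E-box at a start site 3841 bases inside the gene, chr11:69098771-69098800, plus strand: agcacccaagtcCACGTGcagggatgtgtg
*Per3*, D-box, chr4:151044852-151044881, minus strand: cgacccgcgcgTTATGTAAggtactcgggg
*Per3*, D-box, chr4:151044805-151044834, minus strand: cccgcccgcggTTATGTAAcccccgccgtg
*Nfil3*, REV-ERB and ROR core read on the other strand, at a start site 1839 bases inside the gene, chr13:52981033-52981062, minus strand: gcgctcggaacTGACCTActaacacacatc
*Arntl*, REV-ERB and ROR core at a start site 29040 bases inside the gene, chr7:113207530-113207559, plus strand: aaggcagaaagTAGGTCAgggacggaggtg

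Of all 32851 promoter windows, 7.15% held the E-box, 2.32% the D-box, 6.45% the REV-ERB and ROR core and 1.79% the cAMP response element. Counted by gene, over all windows of a gene, the shares were 8.09%, 2.72%, 7.35% and 2.03%. Both *Nfil3* and *Arntl*, the pair that REV-ERB proteins repress, held the core, and *Per3* was the member with the D-box. *Dbp*, *Nr1d1* and *Nr1d2* held none of these letters in the window, and *Per2* had no entry. A match is a stretch of sequence, and nothing here measured binding.

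The 6 libraries held 11029827 to 13185778 counted reads. The count of *Ythdf2* was 840, 961 and 999 in the wild-type libraries and 137, 198 and 138 in the Ythdf2-/- libraries. Wild-type replicate 3 stood apart, at 91.0 on a first principal component (74.2% of the variance) on which the other 5 libraries lay between -30.6 and -6.04. Its progenitor markers were the lowest, at a summed 3738 CPM (counted reads scaled to a common depth) against 4929 to 6622 elsewhere. Its astrocyte markers were the highest, at 6291 against 1207 to 2372 CPM, with *Gfap* the most abundant at 33286 reads. In the remaining libraries *Gfap* had 5103 and 8190 reads (wild type) and 1494, 1185 and 69 reads (Ythdf2-/-), so its groups did not overlap, while the summed astrocyte markers overlapped (1935 to 6291 CPM in wild type and 1207 to 2145 CPM in Ythdf2-/-). The part of this in the differences of the members was not tested. Its neuron markers reached 1855 against 1058 to 1285 CPM, with 3441 reads of *Dcx* against 98 to 172, and its oligodendrocyte lineage markers 3424 against 1574 to 1903 CPM. Microglial markers summed to 0.805 to 1.54 CPM and endothelial markers to 0.915 to 2.21 CPM, with *Cldn5* at 0 in every library. Mesenchymal markers summed to 32.4 CPM in wild-type replicate 3 and 0.889 to 4.35 CPM in the others. Reads of 4 Y-linked genes were present in wild-type replicates 1 and 2 and Ythdf2-/- replicate 3 (1111 to 2147 reads) and near 0 in the rest (0 or 1). The fold changes of the members are given with their range over fits that leave out 1 library.

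All 10 genes were expressed. Per kilobase of gene length, *Tef* had the highest level, at 40.1 ± 4.64 RPKM (CPM per kilobase; SD, n = 6), and no library of any other member reached its lowest value of 33.5. *Nr1d1* (19.6 RPKM), *Nr1d2* (17.2), *Hlf* (14.2), *Per1* (13.2) and *Arntl* (12.9) followed, and each overlapped the next across libraries. The level of *Arntl* did not overlap that of *Dbp* (7.44), after which *Per3* (6.95), *Nfil3* (5.22) and *Per2* (3.64 RPKM) overlapped one another in order. The D-box activators were thus at unequal levels, with *Tef* above *Hlf* in every library. On the log2 scale of CPM, without division by length, *Hlf* minus *Tef* was -1.21, -1.15 and -2.39 in wild-type replicates 1 to 3 and -0.73, -1.59 and -0.19 in Ythdf2-/- replicates 1 to 3.

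The members also differed in how much they varied between libraries. *Hlf* and *Nfil3*, the activator and the repressor of D-box sites, had standard deviations of 0.753 and 0.876 in log2 CPM over the 6 libraries, above those of 88.0% and 91.3% of the genes tested. The value of *Hlf* includes the difference for which it was selected, and within genotypes it was 0.651, above 83.3% of genes. That of *Nfil3* rested on wild-type replicate 3, without which it was 0.346, above 74.0% of genes. *Tef* and *Nr1d2*, at 0.169 each, lay above 20.5% and 20.6% of genes, and *Arntl* at 0.183 above 24.1%. *Dbp*, *Per2* and *Per3* lay between, at 0.365 to 0.384. Without wild-type replicate 3 the shares of genes with a lower spread were 33.0% for *Tef*, 37.2% for *Nr1d2* and 40.7% for *Arntl*.

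**Figure D1:**
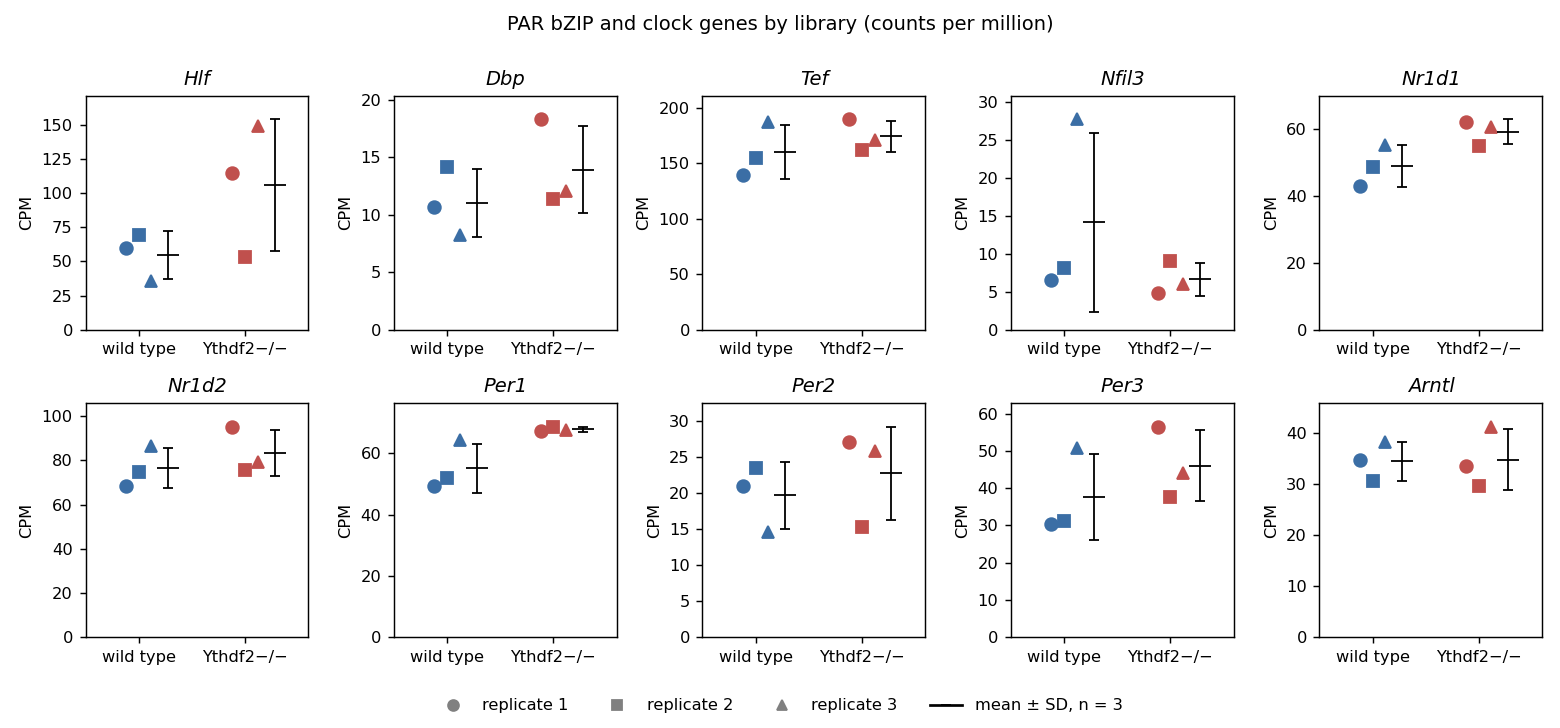
CPM (y axis from 0) of the 10 genes in the 3 wild-type (blue) and 3 Ythdf2-/- (red) libraries, with the symbol giving the replicate number and bars giving the mean ± SD (n = 3). *Per1* is the member whose groups do not overlap, and *Nfil3* has 1 wild-type library far above the other 5.

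*Hlf* encodes a PAR bZIP activator and lies on chromosome 11 (90336535 to 90390917, minus strand). Its counts, here and for the other genes in the order of the replicate numbers, were 703, 912 and 388 in wild type and 1343, 724 and 1859 in Ythdf2-/-. This was 60.2, 69.6 and 35.5 CPM in wild type and 115, 53.6 and 150 CPM in Ythdf2-/-. Ythdf2-/- replicates 1 and 3 were above every wild-type library, while Ythdf2-/- replicate 2 lay below 2 of the 3, so the groups overlapped. The means were 55.1 ± 17.6 CPM in wild type and 106 ± 48.6 CPM in Ythdf2-/- (SD, n = 3). With 1 library left out, the log2 fold change was lowest (0.61) without Ythdf2-/- replicate 3 and highest (1.27) without Ythdf2-/- replicate 2, and it was 0.71 without wild-type replicate 3. Fewer cells of a type and less RNA per cell cannot be told apart in these bulk cultures, here or in the results that follow.

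*Dbp*, a PAR bZIP activator known for its strong rhythm in liver, lies on chromosome 7 (45705100 to 45710203, plus strand). It had 125, 185 and 90 reads in wild type and 215, 154 and 150 reads in Ythdf2-/-. The lowest library was wild-type replicate 3 and the highest Ythdf2-/- replicate 1, and the groups overlapped. Scaled to depth it was 10.7, 14.1 and 8.24 CPM in wild type and 18.3, 11.4 and 12.1 CPM in Ythdf2-/-, a log2 fold change of 0.34 (standard error 0.297). It fell to 0.10 without Ythdf2-/- replicate 1 and to 0.16 without wild-type replicate 3, and was 0.56 without wild-type replicate 2. *Tef*, the third PAR bZIP activator, lies on chromosome 15 (81802673 to 81826863, plus strand). Its counts were 1633, 2031 and 2047 in wild type and 2230, 2190 and 2125 in Ythdf2-/-. Once scaled to depth the groups overlapped, since wild-type replicate 3 (187 CPM) lay above Ythdf2-/- replicates 2 and 3 (162 and 171 CPM). The log2 fold change was 0.12 (standard error 0.154), between 0.03 without wild-type replicate 1 and 0.24 without wild-type replicate 3.

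*Nfil3* encodes the repressor that competes with these activators and lies on chromosome 13 (52967209 to 52982878, minus strand). It had 77, 107 and 303 reads in wild type and 57, 122 and 75 reads in Ythdf2-/-. Wild-type replicate 3 was 27.7 CPM and the other 5 libraries lay between 4.86 and 9.03 CPM, with the groups overlapping. The means were 14.2 ± 11.8 CPM in wild type and 6.64 ± 2.15 CPM in Ythdf2-/- (SD, n = 3), a log2 fold change of -1.09 (standard error 0.605). Without wild-type replicate 3 it was -0.15, against -0.89 to -1.43 without any other library, so the size of the difference rested on that library. The part that its high astrocyte, neuron and oligodendrocyte markers play in this was not tested.

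*Nr1d1* and *Nr1d2* encode the nuclear receptors REV-ERBα and REV-ERBβ. *Nr1d1* lies on chromosome 11 (98767932 to 98775377, minus strand) and had 502, 638 and 605 reads in wild type and 729, 744 and 755 reads in Ythdf2-/-. In CPM the highest wild-type library (55.4) and the lowest Ythdf2-/- library (55.1) met, so the groups just overlapped. The means were 49.0 ± 6.21 and 59.3 ± 3.74 CPM (SD, n = 3), a log2 fold change of 0.28 (standard error 0.142; 0.19 without wild-type replicate 1 and 0.37 without wild-type replicate 3). *Nr1d2*, on chromosome 14 (18204056 to 18239106, minus strand), had 799, 978 and 946 reads in wild type and 1117, 1023 and 985 reads in Ythdf2-/-. Ythdf2-/- replicate 1 was its highest library at 95.2 CPM, while the other Ythdf2-/- libraries (75.7 and 79.3 CPM) lay below wild-type replicate 3 (86.6 CPM). Its log2 fold change was 0.12 (standard error 0.152), between 0.03 without Ythdf2-/- replicate 1 and 0.22 without wild-type replicate 3.

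The *Per* genes encode the repressors that close the loop. *Per1*, on chromosome 11 (69095108 to 69109965, plus strand), had 576, 682 and 702 reads in wild type and 789, 929 and 841 reads in Ythdf2-/-. This was 49.3, 52.0 and 64.2 CPM against 67.3, 68.8 and 67.7 CPM, so every Ythdf2-/- library lay above every wild-type library. The means were 55.2 ± 7.96 and 67.9 ± 0.783 CPM (SD, n = 3), a log2 fold change of 0.30 (standard error 0.140; 0.23 without wild-type replicate 1 and 0.42 without wild-type replicate 3). *Per1* was the 1 member of 10 whose groups did not overlap, where 10.2% of all genes tested did not overlap in either direction and 5.24% did so with Ythdf2-/- higher. This share of members is close to that of all genes.

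*Per2*, on chromosome 1 (91415977 to 91459351, minus strand), had 246, 309 and 159 reads in wild type and 318, 207 and 322 reads in Ythdf2-/-. Its lowest libraries were wild-type replicate 3 (14.6 CPM) and Ythdf2-/- replicate 2 (15.3 CPM), the same 2 libraries in which *Hlf* was lowest. The log2 fold change was 0.21 (standard error 0.292). Without wild-type replicate 3 it was 0.03, without Ythdf2-/- replicate 1 it was 0.07, and it was highest, at 0.43, without Ythdf2-/- replicate 2. *Per3*, on chromosome 4 (150997018 to 151044707, minus strand), had 356, 410 and 556 reads in wild type and 663, 508 and 547 reads in Ythdf2-/-. Wild-type replicates 1 and 2 (30.5 and 31.3 CPM) lay below all Ythdf2-/- libraries (37.6 to 56.5 CPM), and wild-type replicate 3 (50.9 CPM) lay among them. The log2 fold change was 0.29 (standard error 0.263). It was 0.58 without wild-type replicate 3, and 0.14, 0.17 and 0.18 without Ythdf2-/- replicate 1, wild-type replicate 1 and wild-type replicate 2.

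*Arntl* encodes the activator BMAL1 and lies on chromosome 7 (113178471 to 113314126, plus strand). It had 405, 400 and 417 reads in wild type and 393, 400 and 513 reads in Ythdf2-/-. The means of 34.5 ± 3.82 and 34.8 ± 5.94 CPM (SD, n = 3) differed by less than the spread between replicates, with a log2 fold change of 0.01 (standard error 0.176). Its sign turned to -0.06 without wild-type replicate 2 and to -0.13 without Ythdf2-/- replicate 3, and it was 0.13 without Ythdf2-/- replicate 2.

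In edgeR's quasi-likelihood test, 0 of the 9 members tested passed an adjusted p of 0.05 (0% of the 13112 genes did), and each had an adjusted p of 0.999. *Ythdf2* itself, at a log2 fold change of -2.66, had an adjusted p of 0.0547 and was not called in this test either. At an unadjusted p under 0.05 the count was also 0 of 9, where 3.63% of all genes passed. The smallest unadjusted p among the members from edgeR's quasi-likelihood test was 0.074, for *Per1*, followed by 0.0967 for *Nr1d1* and 0.120 for *Nfil3*. DESeq2 also called 0 of the 9, with 0.236% of all genes called and 4.27% at an unadjusted p under 0.05. With *Hlf* included, whose direction entered its selection, 9 of the 10 genes had a higher estimate in Ythdf2-/- and 1, *Nfil3*, a lower one. The median log2 fold change of the 10 was 0.24, where that of all genes was -0.01 and 48.1% of genes were higher. The median of the 10 was 0.09 without Ythdf2-/- replicate 1, the library highest for 6 of them, and 0.18 to 0.32 without any other library.

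The count of members called differed when libraries were weighted by quality. Limma-voom with sample quality weights, which ran from 0.0901 for wild-type replicate 3 and 0.451 for Ythdf2-/- replicate 2 to 3.74 for wild-type replicate 2, called 3 of the 9 members higher in Ythdf2-/-, where it called 4.82% of all genes. At an unadjusted p under 0.05 limma had 5 of the 9, *Tef* and *Nr1d2* besides these 3, where 29.9% of all genes passed. These were *Per1* (log2 fold change 0.40, adjusted p = 0.0407 with limma), *Per3* (0.72, adjusted p = 0.0417 with limma) and *Nr1d1* (0.40, adjusted p = 0.0493 with limma). With wild-type replicate 3 left out, edgeR's quasi-likelihood test called 0 of the 9 (0.0151% of genes called). The same 3 genes then had an unadjusted p under 0.05, where 16.6% of all genes did, and their adjusted p ran from 0.165 to 0.234 in edgeR's test.

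**Figure D2:**
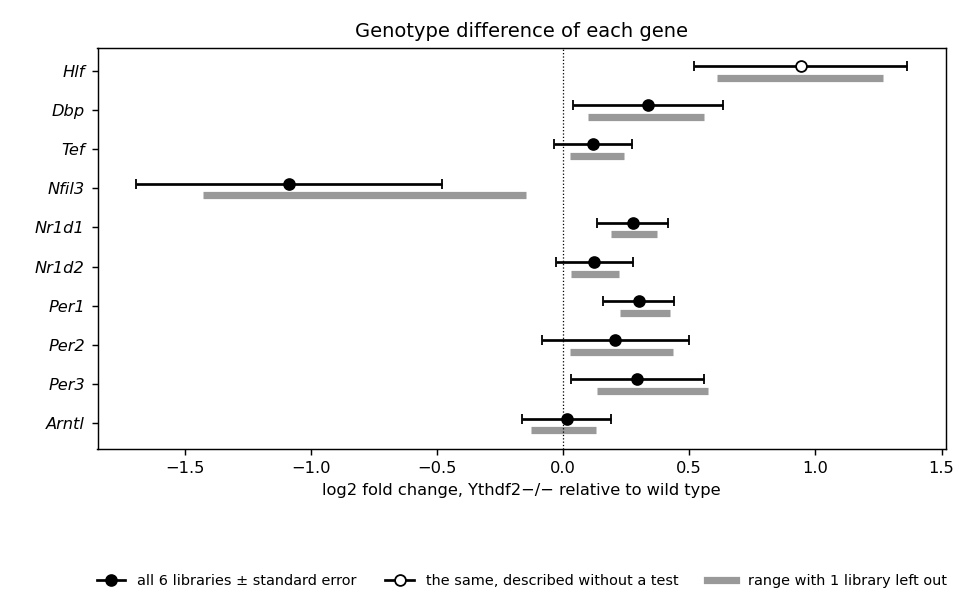
Log2 fold change of Ythdf2-/- relative to wild type (x axis) for each of the 10 genes, with the standard error from edgeR's fit to all 6 libraries (points and black bars) and the range when 1 library at a time is left out (grey bars). The open point is *Hlf*, given without a test; the grey bar of *Nfil3* reaches -0.15, its value without wild-type replicate 3.

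Whether the relatives and clock genes varied with *Hlf* from library to library was measured by the correlation of log2 CPM over the 6 libraries. The points share their genotype and the cell composition of their culture, and 13.4% of all genes tested had a Pearson's r with *Hlf* of at least 0.8 in size. *Per2* had the highest r, at 0.889 (exact permutation p = 0.0264, adjusted over 9 relations p = 0.15), with Spearman's rho 0.943 (exact permutation p = 0.0167, adjusted p = 0.15). An r of that size or more was reached by 5.31% of genes. It was 0.853 over the 4 libraries left after wild-type replicate 3 and Ythdf2-/- replicate 3, the libraries farthest from the median of *Hlf*, were removed, and 0.962 for deviations from the genotype means.

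*Nfil3* had the lowest r, at -0.815 (exact permutation p = 0.0333, adjusted p = 0.15), with rho -0.886 (exact permutation p = 0.0333, adjusted p = 0.15). An r at least this large in size was found for 11.8% of genes. It was -0.869 without the 2 farthest libraries and -0.74 within genotypes. *Dbp* had an r of 0.704 (exact permutation p = 0.110, adjusted p = 0.329) and rho 0.771 (exact permutation p = 0.103, adjusted p = 0.308), with r 0.949 without the 2 farthest libraries and 0.590 within genotypes. None of the 9 relations passed an adjusted p of 0.05 by the exact permutation test. The smallest p that 720 permutations can give is 0.00139 for r.

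For *Tef*, the relative with the highest level, r with *Hlf* was 0.129 and rho was 0.143 (exact permutation p = 0.801 and 0.803, the same after adjustment). For *Nr1d1*, *Nr1d2*, *Per1*, *Per3* and *Arntl* r lay between 0.205 and 0.472 and rho between 0.143 and 0.429, with adjusted exact permutation p of 0.759 to 0.803. These values depended on single libraries. Without Ythdf2-/- replicate 1 r was -0.15 for *Tef*, -0.20 for *Nr1d2* and -0.10 for *Per3*, and without Ythdf2-/- replicate 3 it was -0.38 for *Arntl*. Without wild-type replicate 3, in which *Hlf* was lowest, all 8 positive correlations lay between 0.454 (*Dbp*) and 0.807 (*Per2*), with 0.687 for *Tef* and 0.792 for *Arntl*, and that of *Nfil3* was -0.75. Over these 5 libraries the smallest adjusted p of the exact permutation test was 0.3125. They depended on the genotypes as well: for deviations from the genotype means r was -0.18 for *Tef*, -0.029 for *Nr1d1*, -0.061 for *Nr1d2*, -0.57 for *Per1* and -0.14 for *Per3*, and 0.350 for *Arntl*. Without the 2 farthest libraries r for these 6 genes lay between 0.301 (*Per1*) and 0.891 (*Nr1d2*).

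**Figure D3:**
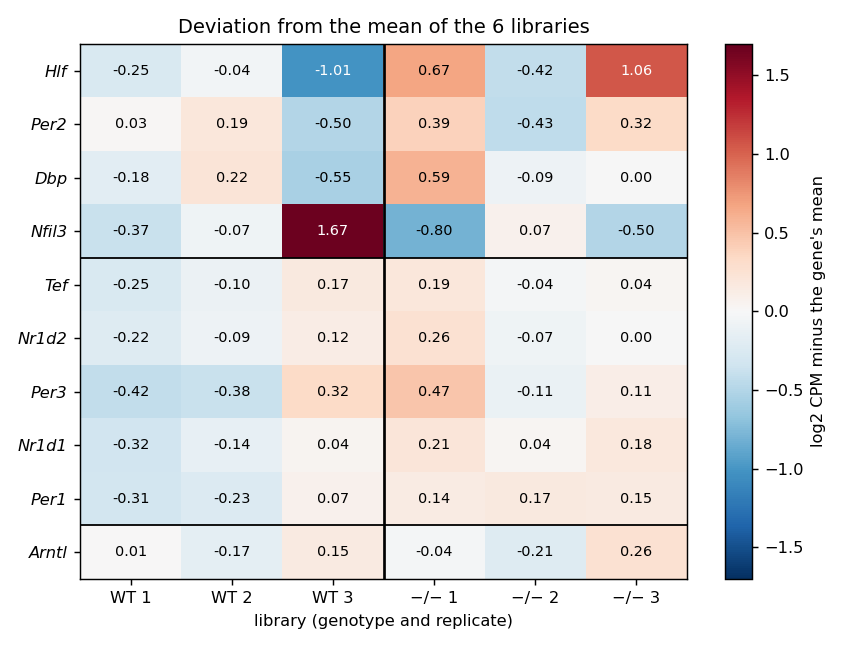
Deviation of log2 CPM from each gene's mean over the 6 libraries (colour and printed values), with libraries in columns and genes in rows. *Hlf*, *Per2* and *Dbp* are lowest in wild-type replicate 3, where *Nfil3* is highest, while *Tef*, *Nr1d1*, *Nr1d2*, *Per1* and *Per3* are lowest in wild-type replicate 1.

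Among the members themselves, 38 of the 45 pairs had a positive r over all 6 libraries, with a median of 0.23. Of these pairs 8 reached 0.8, and 2 others reached that size with a negative sign. The same shares among pairs of all genes were not measured, so these counts are not particular to the members. With all 6 libraries the members could be read as sets, which were picked from these same r values and are described without a test. That r was high within the sets and lower between them follows from this choice. *Hlf*, *Per2* and *Dbp* varied together over the libraries (r 0.704 to 0.889 in 3 pairs), opposite to *Nfil3*, and their range without wild-type replicate 3 was 0.454 to 0.807. *Tef*, *Nr1d1*, *Nr1d2*, *Per1* and *Per3* formed the other set, with r from 0.673 to 0.964 in 10 pairs and 0.665 to 0.966 without wild-type replicate 3. In that set 7 of the 10 pairs reached an r of 0.8. Between these sets r lay between -0.15 and 0.472 (median 0.15 of 15 pairs) with all libraries, but between -0.049 and 0.882 (median 0.55) without wild-type replicate 3. The separation of the sets thus rested on that library: without it *Hlf* had a higher r with *Tef* (0.687), *Nr1d1* (0.722), *Nr1d2* (0.632) and *Per3* (0.718) than with *Dbp* (0.454). The r of *Per2* with *Per3* was 0.036 with and 0.455 without it, and that with *Per1* was -0.15 and -0.049. With all libraries *Arntl* had its highest r, 0.431, with *Per3*.

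By library, Ythdf2-/- replicate 1 was the highest for 6 of the 10 genes (*Dbp*, *Tef*, *Nr1d1*, *Nr1d2*, *Per2* and *Per3*) and the lowest for *Nfil3*. Wild-type replicate 1 was the lowest for 5 (*Tef*, *Nr1d1*, *Nr1d2*, *Per1* and *Per3*). The mean log2 CPM of the E-box-driven genes *Dbp*, *Nr1d1*, *Nr1d2*, *Per1*, *Per2* and *Per3*, minus that of *Arntl* and *Nfil3*, was 1.05, 1.15 and 0.11 in wild-type replicates 1 to 3 and 1.87, 1.10 and 1.35 in Ythdf2-/- replicates 1 to 3. The groups overlapped, with means of 0.77 ± 0.574 and 1.44 ± 0.394 (SD, n = 3), and the low value of wild-type replicate 3 came with its high *Nfil3*. The difference between genotypes was 0.66 with all libraries, 0.33 without wild-type replicate 3 and 0.45 to 0.86 without any other library. For *Nr1d1* minus *Arntl*, a contrast without *Nfil3*, the values were 0.31, 0.67 and 0.53 in wild type and 0.89, 0.89 and 0.56 in Ythdf2-/-. There too the groups overlapped, since wild-type replicate 2 lay above Ythdf2-/- replicate 3.

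Of all genes tested, the 3 with the highest r with *Hlf* were *Thap12* (0.993), *Cipc* (0.993) and *Ttyh3* (0.993), and the 3 with the lowest were *Mllt10* (-0.993), *Azin2* (-0.991) and *Arfip2* (-0.991). *Cipc*, which encodes a repressor that binds CLOCK, was 64.4, 66.5 and 57.6 CPM in wild-type replicates 1 to 3 and 76.6, 61.3 and 83.1 CPM in Ythdf2-/- replicates 1 to 3. Its 6 libraries had the same order as those of *Hlf*, over a smaller range. *Azin2*, an antizyme inhibitor gene, was 9.41, 9.84 and 15.7 CPM in wild type and 6.14, 11.9 and 5.07 CPM in Ythdf2-/-. These genes are the extremes of 13111 correlations over 6 libraries.

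Of 21 other clock genes, 20 were tested, and *Fbxl21* did not pass the filter. The estimate was higher in Ythdf2-/- for 9 of the 20 and lower for 11, their median being -0.05 on the log2 scale. The sign of that median turned without wild-type replicate 3 (0.07), and without any other library it was -0.09 to -0.003. In edgeR's quasi-likelihood test 0 were called at an adjusted p of 0.05. DESeq2 called 0 as well. *Ciart*, a clock repressor, had an unadjusted p of 0.0448 from edgeR's quasi-likelihood test, at 4.08 ± 0.795 CPM in wild type and 6.58 ± 1.21 CPM in Ythdf2-/- (SD, n = 3), a log2 fold change of 0.69 (standard error 0.276). It was the 1 list gene of 20 with an unadjusted p under 0.05, where 3.63% of all genes passed. The unadjusted p of edgeR's test was 0.0643 to 0.138 without wild-type replicate 1 or 3 or Ythdf2-/- replicate 1 or 3. Its groups did not overlap, at 3.42, 4.96 and 3.84 CPM against 7.25, 5.18 and 7.32 CPM. *Ciart* was 1 of 3 list genes of which this was true, where 10.2% of all genes were, and the others were *Usp2* (higher) and *Csnk1d* (lower, as were 4.92% of all genes).

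Of the partners of the members in the loop, none had an unadjusted p under 0.05 with all 6 libraries in edgeR's quasi-likelihood test. *Clock*, whose product pairs with BMAL1, differed by -0.06 on the log2 scale (standard error 0.132). *Cry1* and *Cry2*, the partners of the PER repressors, had 0.01 (standard error 0.231) and -0.13 (standard error 0.370). Leaving out 1 library turned the sign of *Clock* (0.04 without wild-type replicate 3) and of *Cry1* (-0.05, -0.06 and -0.14 without wild-type replicate 1, Ythdf2-/- replicate 1 and Ythdf2-/- replicate 3). For *Cry2* wild-type replicate 3 was the highest library at 88.6 CPM, with 35.1 to 58.3 CPM in the others, and without it the estimate was 0.40 (unadjusted p = 0.0378, adjusted p = 0.275 in edgeR's test). Without that library 16.6% of all genes had an unadjusted p under 0.05 in the same test. *Rora* and *Rorb*, the activators that oppose REV-ERB at the same sites, had 0.23 (standard error 0.261) and 0.26 (standard error 0.205). With 1 library left out *Rora* lay between -0.03 (without Ythdf2-/- replicate 3) and 0.45 (without Ythdf2-/- replicate 2), and *Rorb* between 0.12 (without Ythdf2-/- replicate 1) and 0.45 (without Ythdf2-/- replicate 2).

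The study concerns a reader of m6A, a mark that is placed on adenosines within the consensus that holds GGACT. In GENCODE M21 transcripts the 10 members had a median of 1.04 GGACT per kilobase, and the 12288 tested genes with a transcript also had 1.04. *Arntl*, at 2.35 per kilobase, lay above 94.5% of the genes and *Per2*, at 1.89, above 87.1%. *Hlf* had 7 in 5642 bases, or 1.24 per kilobase, and *Dbp* had 0 in 1837 bases. The letters are a description of the transcripts, and m6A itself was not analysed here.

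Several members share bases with a gene on the opposite strand, and the strand setting of the counting is not given in the sources used here. Exons of *Nr1d1* overlap those of *Thra*, a thyroid hormone receptor gene, by 471 bases, those of *Dbp* overlap *Sphk2* by 539 and those of *Per3* overlap *Uts2* by 139. Those of *Per2* overlap *Gm35591*, a locus without a row in the count tables, by 698. The counts of these members are uncertain to that extent. The deposited gene tables, which hold expected counts, TPM and FPKM, gave most members almost no reads. *Hlf* had 2 expected reads in all against 5929 raw reads, *Nfil3* 0 against 741, and *Dbp* 35 against 919, or 3.81%.

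*Nr1d1* was the exception, with 101, 123 and 266 expected reads in wild type and 153, 167 and 95 in Ythdf2-/-, in all 22.8% of its raw reads. These followed the raw reads of *Thra* on the other strand, which were 1917, 2319 and 4245 in wild type and 2754, 2928 and 2267 in Ythdf2-/-. They were 4.19% to 6.27% of the *Thra* reads in every library, while they were 12.6% to 44.0% of the raw reads of *Nr1d1*. Across genes, the median share of expected in raw counts was 2.32% for the 1221 genes with at least 200 bases of exon overlap on the opposite strand and 0.166% for the 10393 genes with none. With the FPKM values the log2 fold change of *Nr1d1* was -0.14 on the log2(FPKM + 1) scale (standard error 0.377), opposite in sign to that from the raw counts, and *Per3*, with 1 expected read in all, had -0.25. Folds on that scale come out smaller for genes of low level. The cause was not tested.

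**Figure D4:**
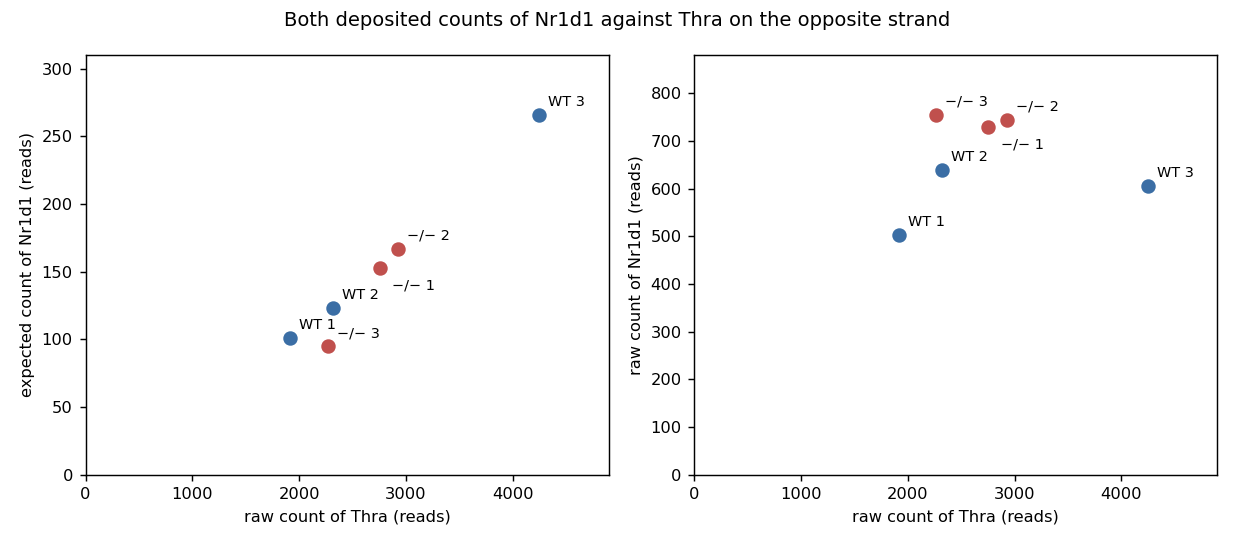
Expected counts (left) and raw counts (right) of *Nr1d1* on the y axis against raw counts of *Thra*, which lies on the opposite strand, on the x axis, with 1 point per library (wild type blue, Ythdf2-/- red). The expected counts are highest in wild-type replicate 3, where *Thra* has 4245 reads, while the raw count of *Nr1d1* there is 605.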

How the data were processed

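The 6 input libraries were grouped by the genotype in their labels. The authors fragmented mRNA to about 100 nt, used a strand-specific kit, and aligned reads to mm10 with TopHat. Their processing notes also name Bowtie2 2.2.9, RSEM 1.2.15 and featureCounts, and give no strand setting. The authors deposited raw counts per gene without normalization. The authors also deposited, per library, a table with expected counts, TPM and FPKM; the expected counts summed to 1.97% to 2.40% of the raw counts. TPM was not tested, and expected counts were only set beside raw counts.

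Raw counts were tested with edgeR 4.0.16 in R 4.3.3 (filterByExpr, TMM factors of 0.988 to 1.03, glmQLFit with the robust option, glmQLFTest, Benjamini-Hochberg over 13112 genes). Genotype was the only term. Log2 CPM used a prior count of 2, and RPKM used the gene lengths of the deposited tables. DESeq2 1.42.0 and limma 3.58.1 were alternatives. Principal components were taken over 2000 genes, those with the highest variance of log2 CPM. Exact permutations, two-sided, used numpy 2.4.6 in Python 3.11.15, with ranks from scipy 1.17.1. The scripts were tested on simulated data. The common biological coefficient of variation was 0.332. With 3 libraries per genotype, the precision rests on the spread between libraries.

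The members, the list of other clock genes and the marker lists were chosen with earlier results of these data known. Genes named were all members, *Ythdf2*, *Clock*, *Cry1*, *Cry2*, *Rora*, *Rorb* and any other clock gene at an unadjusted p under 0.05, genes on the opposite strand of a member, the 3 highest and 3 lowest correlations with *Hlf*, *Gfap* and *Dcx*, and a marker at 0 in all libraries or the most abundant of its list. *Usp2*, *Csnk1d*, *Fbxl21*, *Timeless*, *Tipin* and *Bhlhe40* were named after their values were seen. Positions, promoters and overlaps came from RefSeq on GRCm38.p6, the assembly also called mm10.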

Additional observations from a re-analysis of the deposited data

How the results depend on the processing

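Of 144 refits of the raw counts of the 9 tested members, 139 kept direction and side of the threshold, 3 gained a call (the 3 genes called with quality weights) and 2 reversed, both of *Arntl*, without wild-type replicate 2 (-0.06) and without Ythdf2-/- replicate 3 (-0.13, with a highest value of 0.13 without Ythdf2-/- replicate 2). *Hlf*, not tested, kept its direction in all 16. The FPKM tables hold almost no reads of most members and are not counted there; 4 of their 18 values reversed, of *Nr1d1* and *Per3* (-0.14 and -0.25 with 1 added, -0.14 and -0.99 with 0.1 added). *Nfil3* was listed at 0 there in every library. The genes called among all tested numbered 1 with RLE size factors, 1 with no filter, 1 with a minimum of 10 counts in each library, 13 with a term for Y-linked reads, 31 with DESeq2 and 632 with quality weights, where edgeR called 0 in the reported fit. With 1 library left out it was 0 to 2, the 2 being without wild-type replicate 3. Members called numbered 3 with quality weights and 0 to 0 with 1 library left out. Other clock genes called stayed at 0 throughout. The difference of the E-box contrast was 0.66 on the log2 scale, and 0.67 with a prior count of 0.5 and 0.66 without TMM factors, and 0.33 to 0.86 with 1 library left out, lowest without wild-type replicate 3. These alternatives and those of the spread between libraries and of the pairs of members were chosen after seeing the data.

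Of 90 refits of a correlation with *Hlf*, 81 kept their sign and side and 9 reversed. For deviations from the genotype means r was -0.18 for *Tef*, -0.029 for *Nr1d1*, -0.061 for *Nr1d2*, -0.57 for *Per1* and -0.14 for *Per3*. Without Ythdf2-/- replicate 1 it was -0.15 for *Tef*, -0.20 for *Nr1d2* and -0.10 for *Per3*, and without Ythdf2-/- replicate 3 it was -0.38 for *Arntl*. Among the fits without 1 library, these genes had their highest values without wild-type replicate 3, 0.687 for *Tef*, 0.632 for *Nr1d2*, 0.718 for *Per3* and 0.792 for *Arntl*.

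Deviations from the genotype means had a negative r between libraries of the same replicate number (-0.25, -0.24 and -0.39). The deviations within a genotype depend on one another, and wild-type replicate 3 stood apart. These values therefore cannot tell whether libraries of the same number were paired. With the replicate number as a block, edgeR called 0 genes and 0 members, 183 genes had an unadjusted p under 0.05 in place of 476, and the log2 fold change was 0.88 for *Hlf* and -0.82 for *Nfil3*.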

Other observations

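In the list of other clock genes, some genes differed more between wild-type libraries than between genotypes. *Timeless* and *Tipin*, whose products work together at the replication fork, were 66.5, 49.6 and 4.76 CPM and 73.7, 63.8 and 20.5 CPM in wild-type replicates 1 to 3. In Ythdf2-/- they lay at 38.5 to 45.3 CPM and 42.0 to 44.3 CPM. The log2 fold change of *Timeless* was 0.06 (standard error 0.787) with all libraries and -0.47 (standard error 0.153) without wild-type replicate 3. That of *Tipin* was -0.29 (standard error 0.440) with all libraries and -0.67 (standard error 0.103) without wild-type replicate 3, where edgeR's quasi-likelihood test gave an adjusted p of 0.151. *Bhlhe40*, a clock repressor gene, was 257 CPM in wild-type replicate 3 and 74.3 to 113 CPM in the other 5 libraries. Its log2 fold change was -0.73 (standard error 0.393) with all libraries and -0.18 (standard error 0.181) without that library.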
